A study of Mus musculus with 6 samples.

Results

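The genes described here encode the 26S proteasome, its assembly chaperones and its caps, and were followed in mouse haematopoietic progenitors sorted after forced expression of the transcription factor EVI1. They were chosen by gene symbol: every gene named Psma, Psmb, Psmc, Psmd, Psmf or Psmg with a number, except the immunoproteasome subunits Psmb8, Psmb9 and Psmb10, together with Psme3, Psme4 and Pomp. The symbols took in 45 of the 18192 genes measured. One of these, Psmc3ip, encodes a protein of meiotic recombination that is no part of the proteasome, and it is kept apart below, which leaves 44 proteasome genes.

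Lin- progenitors, bone marrow cells depleted of mature blood cells, came from C57BL/6J mice that carry the doxycycline-controlled activator rtTA in the Rosa26 locus. The EGFP-positive group (3 arrays) carried pRRL.TET.EVI1.IRES.EGFP, a lentiviral vector that makes EVI1 and the fluorescent protein EGFP from 1 transcript under a doxycycline-controlled promoter, and was sorted for high EGFP. The EGFP-negative group (3 arrays) is called untransduced in the sample labels, whereas the design text has cells with no or low EGFP sorted from the transduced culture, so how far its cells carried the vector is not settled. Both groups shared the rtTA allele, a medium with murine interleukin 3 at 20 ng/ml and murine stem cell factor, human interleukin 11 and human Flt3 ligand at 50 ng/ml each, and, by the design text, 20 hours in doxycycline (1 µg/ml). The labels give no age and do not say whether the replicates came from separate mice or cultures. The p-values therefore set a difference against a spread within groups that may be technical, and may not extend to other mice or cultures. The values are log2 expression values from Affymetrix arrays normalized by RMA, and a difference is always the EGFP-positive mean minus the EGFP-negative mean.

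The proteasome degrades proteins that carry a ubiquitin chain. Its 20S core is a barrel of outer alpha rings, which gate the entry, and inner beta rings, in which Psmb5, Psmb6 and Psmb7 encode the cutting subunits. The 19S regulatory particle binds the ubiquitin chain, removes it and feeds the unfolded protein into the core by a ring of ATPases, and dedicated chaperones put both particles together. Transcription of these genes is known to rise as a group when proteasome activity falls short, through the factor NFE2L1 acting at antioxidant response elements, and dividing blood progenitors depend on the complex.

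The promoter sequences are shown first because the genes of 1 complex are often transcribed together through shared elements. RefSeq (GRCm38.p6) gave a window of 250 bases before to 50 bases after the start for 36 of the 44 proteasome genes, in 38 windows. The antioxidant response element core TGACNNNGC, searched on both strands, was found in 6 of the 38 windows (15.8%), against 12.4% of all 32851 windows. The stretches with this core are given on the strand where it reads forward, with its letters in capitals.

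Psmb5 chr14:54618024-54618052 (-): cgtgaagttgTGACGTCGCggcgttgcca
Psmb6 chr11:70525338-70525366 (+): ctaaagagagTGACGGAGCgctttacgac
Psmc6 chr14:45329587-45329615 (-): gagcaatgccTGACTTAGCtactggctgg
Psmd12 chr11:107479278-107479299 (-): ggggcaaatgTGACACAGCaga
Psmd9 chr5:123228149-123228177 (+): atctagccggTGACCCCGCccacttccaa
Psme4 chr11:30771758-30771786 (-): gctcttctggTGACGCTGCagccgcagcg

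Of these 6 genes, 3 were lower in EGFP-positive cells (Psmb6, Psmc6 and Psmd12) and the other 3 did not pass the test. The ETS core CCGGAAG, bound by GABPA and related factors, was found in 16 of the 38 windows (42.1%), against 8.86% of all windows. Its 15 genes included 6 that were lower in EGFP-positive cells, 1 that was higher (Psmg1) and 8 that did not pass the test. Among all 36 proteasome genes with a window 13 were lower, against 17.2% of all genes tested. A link between a motif and the differences was not tested. The GC box GGGCGG was in 55.3% of the proteasome windows and 35.7% of all windows, and the NF-Y box CCAAT was in 34.2% of the proteasome windows and 37.4% of all windows. The E-box CACGTG was in 7.89% of the proteasome windows and 7.15% of all, and the GATA site AGATAA was in 7.89% of the proteasome windows and 11.2% of all. The site GACAAGATA of the first zinc finger domain of EVI1 was in 0 of the 38 windows and in 0.12% of all windows. The 250 bases before the start are printed for called genes with the smallest p in each direction: Psmd12 and Psmg3, which were lower, and Psmg1 and Psma7, which were higher. Psmg2 ranked with them and its promoter is not shown. Capitals mark matches to the antioxidant response element, ETS, GC box and NF-Y letters on either strand.

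Psmd12 chr11:107479278-107479527 (+): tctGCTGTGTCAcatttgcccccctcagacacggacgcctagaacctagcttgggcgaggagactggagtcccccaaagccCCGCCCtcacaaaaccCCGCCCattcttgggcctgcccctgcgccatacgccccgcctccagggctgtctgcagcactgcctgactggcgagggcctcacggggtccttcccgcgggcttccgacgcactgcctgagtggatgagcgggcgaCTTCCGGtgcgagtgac
Psmg3 chr5:139826895-139827144 (-): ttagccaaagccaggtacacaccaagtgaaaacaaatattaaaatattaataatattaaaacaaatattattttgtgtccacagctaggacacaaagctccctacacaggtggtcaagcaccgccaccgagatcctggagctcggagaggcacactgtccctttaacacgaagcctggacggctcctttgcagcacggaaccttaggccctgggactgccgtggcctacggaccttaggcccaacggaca
Psmg1 chr16:95990961-95991210 (-): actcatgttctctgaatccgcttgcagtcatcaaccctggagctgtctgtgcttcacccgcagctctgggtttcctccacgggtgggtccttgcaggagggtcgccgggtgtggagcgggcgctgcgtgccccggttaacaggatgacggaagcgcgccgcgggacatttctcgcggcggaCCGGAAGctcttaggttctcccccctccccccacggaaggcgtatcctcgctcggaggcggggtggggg
Psma7 chr2:180042465-180042714 (-): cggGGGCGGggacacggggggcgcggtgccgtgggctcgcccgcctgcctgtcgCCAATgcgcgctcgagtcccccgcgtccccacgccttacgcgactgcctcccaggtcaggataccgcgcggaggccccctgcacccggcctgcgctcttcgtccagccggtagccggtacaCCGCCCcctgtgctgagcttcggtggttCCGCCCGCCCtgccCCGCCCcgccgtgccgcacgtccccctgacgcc

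The printed stretch of Psmg3 held none of these letters, and its ETS core lay within the 50 bases after the start. The overlapping capitals in Psma7 are GC boxes that run into each other. A match of letters is a description of the window, and no binding was measured here.

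Across the complex most differences were below 0. Their median absolute size, 0.26, was close to the 0.27 of all genes. Of the 44 proteasome genes, 17 (38.6%) were lower in EGFP-positive cells and 2 (4.55%) were higher, and 25 did not pass the test (limma, Benjamini-Hochberg adjusted p under 0.05 over all genes tested). Among all 18192 genes 17.2% were lower and 16% were higher, so the share of lower genes was above the background and the share of higher genes below it. The called share in either direction was 43.2%, against 33.2% of all genes. The median difference over the 44 genes was -0.21, a fold of 0.862, against a median of 0.02 over all genes. A difference below 0 was measured for 33 of the 44 genes, against 47.4% of all genes.

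No proteasome gene differed by 2-fold or more, against 12.8% of all genes, and 6 of the 44 differed by 1.5-fold or more, against 25.7% of all genes. The differences ran between -0.96 (Psmg2) and 0.57 (Psmg1). The 3 arrays of each group did not overlap for 24 genes that lay lower and 7 that lay higher in EGFP-positive cells, against 24.4% and 23.8% of all genes, or 48.2% in either direction. Proteasome transcripts gave bright signals, and the test calls bright genes more often. Among the 9096 genes above the median brightness, 20 of 43 proteasome genes (46.5%) were lower and 5 were higher, against 31.2% and 28.2% of those genes. There the called share of the proteasome genes, 58.1%, was close to the 59.4% of all brighter genes.

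The median deviation of the 44 genes from their EGFP-negative means was -0.21, -0.28 and -0.20 in EGFP-positive replicates 1 to 3. All 3 EGFP-positive arrays therefore lay lower by a like amount. The count of lower genes depended on the arrays in the fit: it was 12, 13 and 14 without EGFP-positive replicates 1, 2 and 3, and 7, 7 and 11 without EGFP-negative replicates 1, 2 and 3. The count of higher genes was 1 without EGFP-negative replicate 1 and 1 without EGFP-negative replicate 3. These fits held fewer arrays, and the share of all genes called in them is not given here. Whether the loss was particular to these genes was not tested. Each array measured a whole sorted fraction, so fewer cells of a type with much of a transcript and less of it per cell cannot be told apart.

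**Figure D1:**
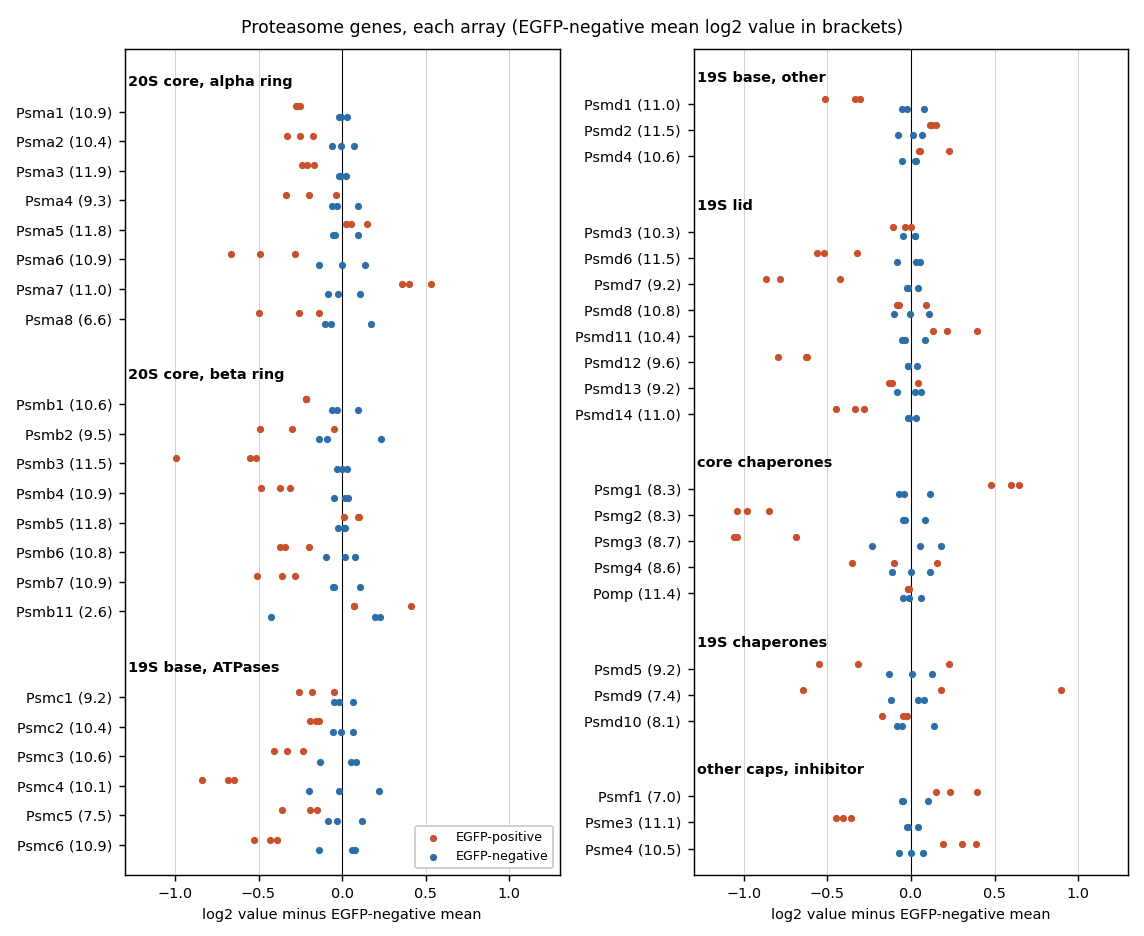
Log2 value of each of the 44 proteasome genes on each array, drawn as its distance from the EGFP-negative mean of that gene (x axis), which is given in brackets beside the gene; orange points are the 3 EGFP-positive arrays and blue points the 3 EGFP-negative arrays. Most orange points lie left of the blue ones, with Psmg2 and Psmg3 farthest left, and Psma7 and Psmg1 lie to the right.

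Several measures moved with the groups beside these genes. Introduced EVI1 was not visible at the brightest of the 3 probe sets of Mecom, its mouse gene, and the other probe sets are not given here. The brightest read 7.97 ± 0.20 in EGFP-positive cells and 8.26 ± 0.09 in EGFP-negative cells (SD, n = 3 each). Whether its probes match the vector's sequence is not known here. The difference was -0.29 (SE 0.12, adjusted p = 0.13). Without EGFP-positive replicate 1 it was -0.41 (adjusted p = 0.033). Transcripts of all 10 measured markers of dividing cells were lower in EGFP-positive cells, with a log2 summed level of 11.62 to 11.81, against 13.45 to 13.51 in EGFP-negative cells. Myc, a growth regulator, differed by -2.70 (SE 0.17, adjusted p = 0.00012). All 10 neutrophil markers were lower, with summed levels of 14.86 to 14.90 in EGFP-positive and 15.78 to 15.87 in EGFP-negative cells. All 4 progenitor markers were lower (12.16 to 12.23 in EGFP-positive and 13.17 to 13.22 in EGFP-negative cells), as were all 5 of mast cells and basophils (11.59 to 11.73 in EGFP-positive and 13.61 to 13.66 in EGFP-negative cells). All 3 eosinophil markers were lower too (7.57 to 8.37 in EGFP-positive and 10.60 to 10.77 in EGFP-negative cells). Among 5 monocyte markers 4 were lower and 1 higher (12.05 to 12.06 in EGFP-positive and 12.21 to 12.26 in EGFP-negative cells), and among 5 lymphoid markers 2 were lower (6.81 to 6.94 in EGFP-positive and 9.06 to 9.38 in EGFP-negative cells). Summed levels follow the brightest markers of a list. The higher monocyte marker was Cd68 (0.80), and the lymphoid sum fell mainly with Dntt (-5.36), while 3 lymphoid markers did not pass the test. The shift was the other way for red cell and platelet lineages. All 5 erythroid markers were higher (11.80 to 11.92 in EGFP-positive and 9.46 to 9.56 in EGFP-negative cells), and 3 of 5 megakaryocyte markers were (11.61 to 11.62 in EGFP-positive and 10.41 to 10.48 in EGFP-negative cells). No marker lay at or below the background ceiling on all arrays. Slc4a1 lay below it on every EGFP-negative array and Ly86 on every EGFP-positive array, so the size of their differences is uncertain. Dntt, Prg3 and Cd3e lay below it on some EGFP-positive arrays. The excess of 3' over 5' signal, a sign of RNA quality or amplification, was 1.00 ± 0.03 in EGFP-positive and 0.80 ± 0.05 in EGFP-negative arrays for Actb, and 1.06 ± 0.04 in EGFP-positive and 0.82 ± 0.02 in EGFP-negative arrays for Gapdh (SD, n = 3 each). The part of these shifts in the proteasome differences was not tested.

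In the 20S core, 6 of the 14 constitutive subunits were lower in EGFP-positive cells and 1 was higher, with a median difference of -0.26, where 17.2% of all genes were lower and 16% higher. Among the brighter genes alone 31.2% were lower. The inner beta ring held 4 of the lower genes among its 7 and no higher one (median -0.30). Of the 3 cutting subunits, 2 passed the test. Psmb7, whose product cuts after basic residues, read 10.54, 10.62 and 10.39 in EGFP-positive replicates 1 to 3, against 10.85, 10.84 and 11.00 in the EGFP-negative replicates. Its groups did not overlap and the difference was -0.38 (SE 0.10, adjusted p = 0.027). Psmb6, whose product cuts after acidic residues, read 10.46, 10.50 and 10.64 in EGFP-positive replicates 1 to 3, against 10.74, 10.85 and 10.92 in the EGFP-negative replicates. Here too every EGFP-positive array lay lower, with a difference of -0.30 (SE 0.09, adjusted p = 0.048). Psmb5, which encodes the chymotrypsin-like activity and the main target of bortezomib, read 11.92, 11.93 and 11.84 in EGFP-positive replicates 1 to 3, against 11.84, 11.80 and 11.84 in the EGFP-negative replicates. The groups overlapped, and the difference of 0.07 had a 95% interval of -0.12 to 0.25 (adjusted p = 0.55). Differences between these 3 genes in their response were not tested.

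Among the beta subunits that do not cut, Psmb3 had the largest difference of the core genes. It read 10.50, 10.98 and 10.94 in EGFP-positive replicates 1 to 3, against 11.47, 11.50 and 11.53 in the EGFP-negative replicates, a difference of -0.69 (SE 0.14, adjusted p = 0.012). EGFP-positive replicate 1 was the lowest, and the other EGFP-positive arrays also lay below every EGFP-negative array. Psmb4 read 10.55, 10.43 and 10.61 in EGFP-positive replicates 1 to 3, against 10.96, 10.94 and 10.87 in the EGFP-negative replicates, a difference of -0.39 (SE 0.08, adjusted p = 0.015). Psmb1 (-0.21, adjusted p = 0.092) and Psmb2 (-0.28, adjusted p = 0.23) did not pass the test. Psmb3 passed under all 15 alternatives, with adjusted p up to 0.047. Psmb6 lost its call under 11 of them, among these without any array other than EGFP-positive replicate 3 (adjusted p 0.042 to 0.14 over the arrays left out), Psmb7 likewise without any array other than EGFP-positive replicate 2 (0.033 to 0.086), and Psmb4 without EGFP-negative replicate 1 or 2 (0.021 to 0.061) and with its most variable probe set (0.096). A block on replicate number also ended the calls of Psmb6 (adjusted p = 0.078), Psmb7 (0.086) and Psmb4 (0.056).

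The alpha ring of the core was mixed, with 2 of its 7 constitutive subunits lower and 1 higher (median -0.20). Among all genes 17.2% were lower and 16% higher, and in the fit of brighter genes alone 31.2% and 28.2%. Psma7, an alpha ring subunit, rose in EGFP-positive cells, the only core gene to do so. It read 11.56, 11.42 and 11.38 in EGFP-positive replicates 1 to 3, against 11.00, 11.13 and 10.94 in the EGFP-negative replicates, with no overlap, a difference of 0.43 (SE 0.09, adjusted p = 0.015). Psma6 read 10.19, 10.37 and 10.57 in EGFP-positive replicates 1 to 3, against 10.86, 10.72 and 10.99 in the EGFP-negative replicates, all EGFP-positive arrays being lower, with a difference of -0.48 (SE 0.13, adjusted p = 0.032). Psma1 read 10.62, 10.60 and 10.61 in EGFP-positive replicates 1 to 3, against 10.86, 10.90 and 10.86 in the EGFP-negative replicates, a difference of -0.26 (SE 0.07, adjusted p = 0.033). The arrays of Psma1 lay close together within each group, but its 3 dimmer probe sets pointed the other way. These read means of 6.63, 5.52 and 5.37 in EGFP-positive cells and 6.03, 4.83 and 4.66 in EGFP-negative cells. The first differed by 0.60 (SE 0.12, adjusted p = 0.012 over all probe sets) and the others, by 0.70 and 0.71, did not pass. In that fit over all probe sets the brightest probe set of Psma1 did not pass (adjusted p = 0.069). Direction of Psma1 thus depends on the probe set, and with the mean of its probe sets the difference was 0.44 and the median of the alpha ring 0.04.

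The remaining alpha subunits were not called: Psma2 (-0.25), Psma3 (-0.20), Psma4 (-0.19) and Psma5 (0.07), with adjusted p between 0.068 and 0.57. Psma1 passed with none of the 6 arrays left out (adjusted p 0.065 to 0.12). It also did not pass with a block on replicate number (0.10) or with arrays shifted to the same median (0.064). Psma6 passed only when EGFP-positive replicate 3 was the array left out (0.020 to 0.10), and Psma7 lost its call without EGFP-negative replicate 1 or 3 (0.025 to 0.059). Core genes restricted to other tissues gave no call. Psma8, the alpha subunit of the testis, had means of 6.31 in EGFP-positive and 6.61 in EGFP-negative cells (-0.30, adjusted p = 0.14). Psmb11, the thymus subunit, lay below the background ceiling of 3.61 on all 6 arrays, and no fold is given.

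In the 19S particle 8 of the 17 genes were lower in EGFP-positive cells and none was higher (median -0.23), where 17.2% and 16% of all genes were. In the fit of brighter genes alone 31.2% were lower and 28.2% higher. The 6 ATPases of its base, which pull the substrate into the core, all had lower values on every EGFP-positive array than on any EGFP-negative array, and 3 of them passed the test (median -0.28). Among all genes 24.4% lay lower in this way, and for Psmc1 the gap between the nearest arrays was smaller than the last digit printed here. Psmc4 differed most. It read 9.25, 9.44 and 9.41 in EGFP-positive replicates 1 to 3, against 9.89, 10.07 and 10.30 in the EGFP-negative replicates, a difference of -0.72 (SE 0.13, adjusted p = 0.0068). Psmc6 read 10.48, 10.44 and 10.35 in EGFP-positive replicates 1 to 3, against 10.93, 10.95 and 10.74 in the EGFP-negative replicates, a difference of -0.45 (SE 0.10, adjusted p = 0.014). For Psmc3 the values were 10.37, 10.19 and 10.27 in EGFP-positive replicates 1 to 3, against 10.68, 10.65 and 10.46 in the EGFP-negative replicates, a difference of -0.32 (SE 0.10, adjusted p = 0.048). These 3 genes had no overlap between groups, and the difference of Psmc4 was the largest of the particle. The other ATPases differed by -0.16 (Psmc1), -0.16 (Psmc2) and -0.23 (Psmc5), with adjusted p of 0.23, 0.17 and 0.13. Psmc4 passed under all 15 alternatives (adjusted p up to 0.028), Psmc6 lost its call without EGFP-negative replicate 1 or 2 (0.016 to 0.057 over the arrays left out) and with its most variable probe set (0.085), and Psmc3 lost it without any array other than EGFP-negative replicate 3 (0.044 to 0.15). Psmc3 lost its call under 10 of the 15 alternatives. Besides arrays left out, these were a block on replicate number (adjusted p = 0.092) and a further quantile normalization (0.054). The others were arrays shifted to the same median, eBayes robust and the fit with each gene's most variable probe set.

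The 3 non-ATPase genes of the base divided. Psmd1, a large scaffold subunit, read 10.64, 10.67 and 10.46 in EGFP-positive replicates 1 to 3, against 11.05, 10.95 and 10.92 in the EGFP-negative replicates, a difference of -0.38 (SE 0.09, adjusted p = 0.022). Psmd2, the other large scaffold subunit, which docks shuttles and the deubiquitinase Usp14, and Psmd4, a ubiquitin receptor, lay higher on every EGFP-positive array. Their differences of 0.13 and 0.11 did not pass the test (adjusted p = 0.27 and 0.41). The call of Psmd1 was lost without EGFP-negative replicate 1, 2 or 3 (0.032 to 0.082 over the arrays left out) and with a block on replicate number (0.052).

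In the lid, which removes ubiquitin chains, 4 of 8 genes were lower in EGFP-positive cells (median -0.21). Among all genes 17.2% were lower, and 31.2% in the fit of brighter genes alone. Psmd12, a scaffold subunit, read 8.993, 8.821 and 8.996 in EGFP-positive replicates 1 to 3, against 9.65, 9.60 and 9.60 in the EGFP-negative replicates. Its groups lay far apart relative to their spread, with a difference of -0.68 (SE 0.09, adjusted p = 0.0017) and a 95% interval of -0.89 to -0.47. Psmd7, which pairs with the deubiquitinase subunit Psmd14, read 8.31, 8.75 and 8.39 in EGFP-positive replicates 1 to 3, against 9.21, 9.15 and 9.15 in the EGFP-negative replicates, a difference of -0.69 (SE 0.13, adjusted p = 0.0086). Psmd14, which cuts the chain off the substrate, read 10.64, 10.70 and 10.53 in EGFP-positive replicates 1 to 3, against 11.01, 10.97 and 10.96 in the EGFP-negative replicates, a difference of -0.35 (SE 0.08, adjusted p = 0.018). The deubiquitinase and its partner were thus both lower. Psmd6, a lid scaffold subunit, read 10.91, 11.14 and 10.95 in EGFP-positive replicates 1 to 3, against 11.52, 11.50 and 11.38 in the EGFP-negative replicates, a difference of -0.47 (SE 0.10, adjusted p = 0.013).

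The other lid genes were not called. Psmd3 (-0.05), Psmd8 (-0.02) and Psmd13 (-0.07) lay near 0 with overlapping groups. Psmd11, another scaffold subunit, read higher on every EGFP-positive array, by 0.25 (adjusted p = 0.11), and its 3 other probe sets with a mean of at least 7 differed by 0.09, 0.22 and 0.19. Psmd12 passed under all 15 alternatives (adjusted p up to 0.012) and Psmd7 under all but the mean of its probe sets, which gave -0.39 (0.063). Psmd6 lost its call without EGFP-negative replicate 1 or 2 (0.011 to 0.054 over the arrays left out) and Psmd14 without any EGFP-negative replicate (0.027 to 0.071). A block on replicate number also ended the call of Psmd14 (adjusted p = 0.060).

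**Figure D2:**
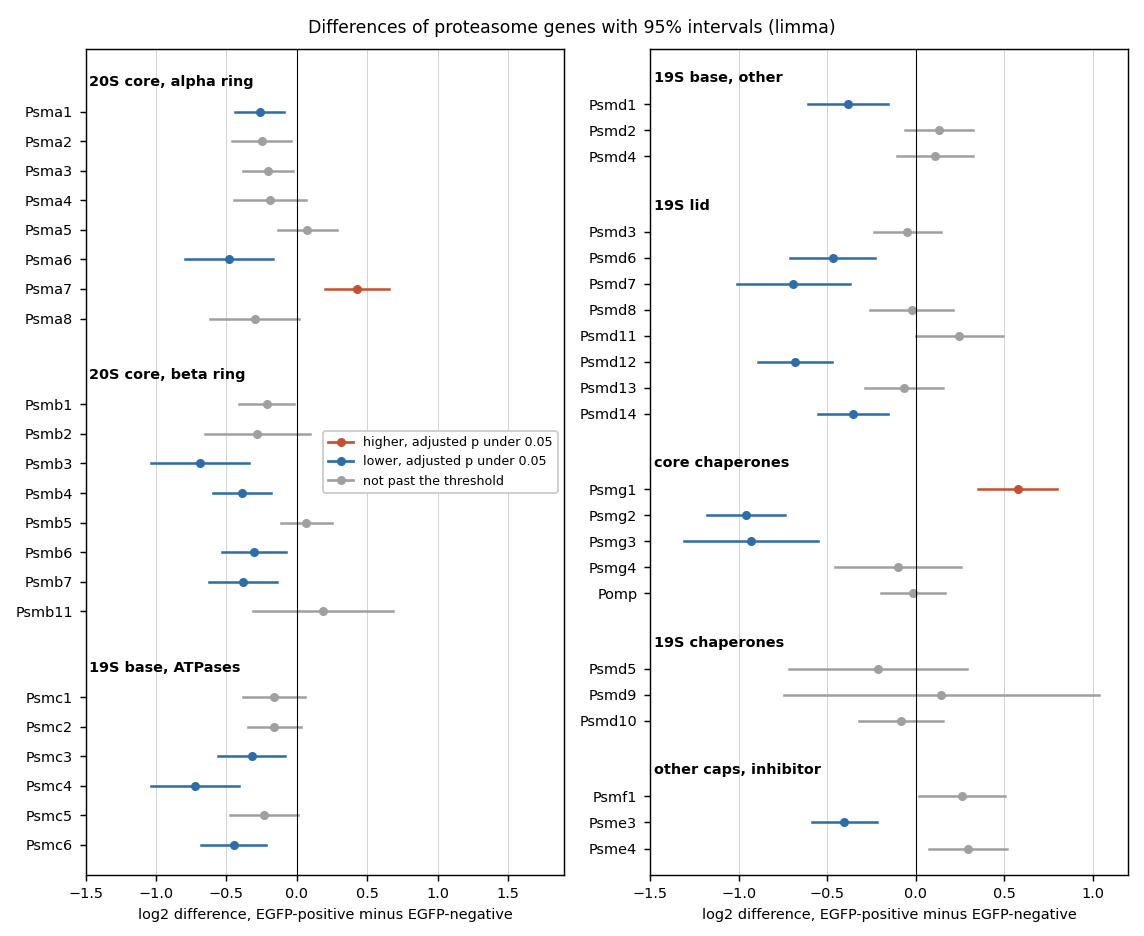
Log2 difference (EGFP-positive minus EGFP-negative, x axis) with its 95% interval from limma for each of the 44 proteasome genes, 3 arrays a group, by place in the complex; orange is higher, blue lower and grey not past an adjusted p of 0.05. The 19S panels hold 8 blue genes and no orange one, and the core chaperones hold both the largest fall (Psmg2, -0.96) and the largest rise (Psmg1, 0.57).

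Assembly chaperones of the core showed the widest range. Psmg1 and Psmg2 encode the partners of 1 heterodimer that starts the alpha ring, and their transcripts moved in opposite directions. Psmg1 read 8.94, 8.90 and 8.78 in EGFP-positive replicates 1 to 3, against 8.26, 8.23 and 8.41 in the EGFP-negative replicates, a rise of 0.57 (SE 0.09, adjusted p = 0.0045). Psmg2 read 7.31, 7.24 and 7.43 in EGFP-positive replicates 1 to 3, against 8.24, 8.37 and 8.25 in the EGFP-negative replicates, a difference of -0.96 (SE 0.09, adjusted p = 0.00053). Neither pair of groups overlapped. A dimmer probe set of Psmg2 also fell, by 1.08 (SE 0.15, adjusted p = 0.0029 over all probe sets), and the third differed by -0.11 without passing (adjusted p = 0.78). Psmg1 had 1 probe set.

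Psmg3 and Psmg4 encode a further heterodimer of the alpha ring. Psmg3 read 7.60, 7.62 and 7.98 in EGFP-positive replicates 1 to 3, against 8.43, 8.84 and 8.72 in the EGFP-negative replicates, a difference of -0.93 (SE 0.16, adjusted p = 0.0052). Psmg4 did not pass the test (-0.10, adjusted p = 0.66), and its EGFP-positive arrays spread on both sides of the EGFP-negative ones. Pomp, the maturation factor of the beta rings, read 11.42, 11.42 and 11.42 in EGFP-positive replicates 1 to 3, against 11.42, 11.39 and 11.49 in the EGFP-negative replicates, a difference of -0.01 with a 95% interval of -0.20 to 0.17. Psmg1, Psmg2 and Psmg3 passed under all 15 alternatives, with adjusted p up to 0.028, 0.0071 and 0.042. The other, dimmer probe set of Psmg3 differed by 0.04 (adjusted p = 0.89 over all probe sets), and with the mean of its probe sets Psmg3 read -0.45. Whether Psmg1 and Psmg2 differ from each other was not tested.

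The 3 chaperones of the 19S base, Psmd5, Psmd9 and Psmd10, gave no call. Psmd5 differed by -0.21 and Psmd10, also known as the liver oncoprotein gankyrin, by -0.08 (adjusted p = 0.49 and 0.58). Psmd9 read 7.63, 6.80 and 8.34 in EGFP-positive replicates 1 to 3, against 7.33, 7.52 and 7.49 in the EGFP-negative replicates. Its EGFP-positive arrays varied more than those of any other proteasome gene (SD 0.77, n = 3), and the difference was 0.14 (adjusted p = 0.81). Its remaining probe sets did not vary so. The brighter of them read 6.59, 6.69 and 6.98 in EGFP-positive cells, against 7.45, 7.47 and 7.45 in EGFP-negative cells, a difference of -0.70 (SE 0.12, adjusted p = 0.0083 over all probe sets), and the dimmer differed by -0.80 (adjusted p = 0.029). No direction is therefore given for Psmd9.

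Of the other caps and the inhibitor, Psme3, the nuclear PA28 gamma cap that opens the core without ubiquitin, was lower. It read 10.77, 10.68 and 10.72 in EGFP-positive replicates 1 to 3, against 11.10, 11.17 and 11.11 in the EGFP-negative replicates, a difference of -0.40 (SE 0.08, adjusted p = 0.0083). Psme4, the PA200 cap known for histone degradation, lay higher on every EGFP-positive array. It read 10.81, 10.90 and 10.70 in EGFP-positive replicates 1 to 3, against 10.44, 10.51 and 10.58 in the EGFP-negative replicates, a difference of 0.30 (SE 0.09, adjusted p = 0.051) that just missed the threshold. Psmf1, the PI31 regulator, differed by 0.26 (adjusted p = 0.096). The call of Psme3 was lost when its most variable probe set was used, which differed by -0.58 with more spread between arrays (adjusted p = 0.056), and Psme4 passed when EGFP-positive replicate 3 was left out and under several other alternatives.

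**Figure D3:**
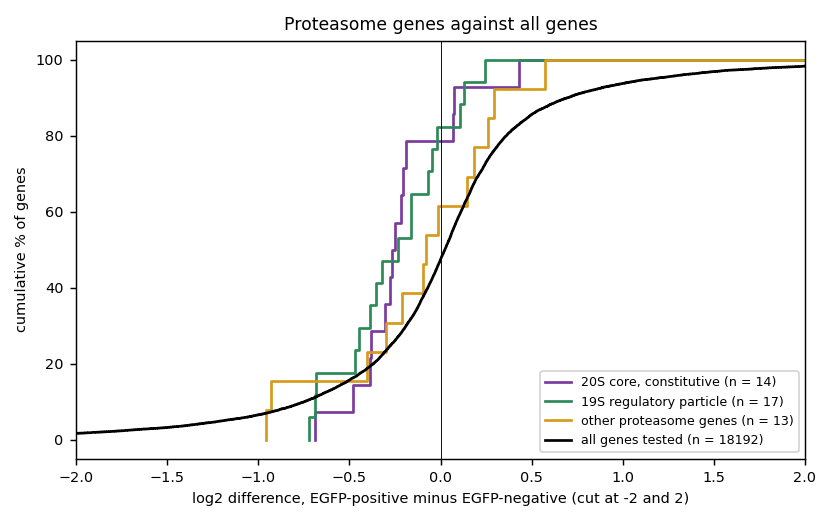
Cumulative percentage of genes (y axis) up to each log2 difference, EGFP-positive minus EGFP-negative (x axis, drawn between -2 and 2), for the 14 constitutive core genes, the 17 genes of the 19S particle, the 13 other proteasome genes and all 18192 genes. The core and 19S lines lie left of the line of all genes around 0 and reach 100% at a smaller difference than it does.

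Genes with several probe sets allowed a check within the arrays. The 44 genes had 96 probe sets, and 25 genes had more than 1. Of the 52 probe sets that were not the brightest of their gene, 40 had the sign of the brightest, 5 passed the test over all probe sets in that direction and 3 in the opposite one, namely 1 of Psma1 and 2 of Psmd9. In that test 24.1% of all 45037 probe sets passed. Among the 21 with a mean of at least 7, 20 had the same sign. For genes called lower there were 8 such probe sets, all of the same sign, and 4 of them passed. Probe sets of 1 gene were read from the same RNA and are not replicates. Psma1, Psmb6 and Psmc3 were called lower in the fit of genes. Their brightest probe sets did not pass in the fit over all probe sets (adjusted p = 0.069, 0.079 and 0.077). For Psmb3 the second bright probe set differed by -1.01 (SE 0.14), for Psmc4 by -0.72 (SE 0.09), for Psma6 by -0.54 (SE 0.09) and for Psmd6 by -0.50 (SE 0.11). Among the 44 brightest probe sets, 2 (Psma6 and Psmd13) have names ending in _x_at and 1 (Psme4) in _s_at, which mark designs that may also match related transcripts.

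**Figure D4:**
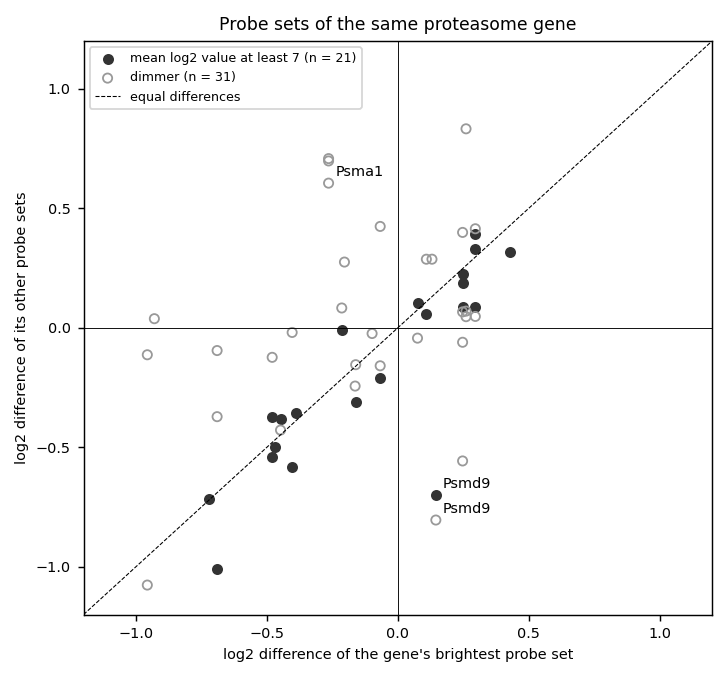
Log2 difference (EGFP-positive minus EGFP-negative) of each gene's brightest probe set (x axis) against each of its 52 other probe sets (y axis); filled points are the 21 with a mean log2 value of at least 7, open points the 31 dimmer ones, and the broken line marks equal differences. Filled points lie on the same side of 0 as the brightest probe set with 1 exception, Psmd9, and the dimmer points scatter widely.

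Psmc3ip, which shares only the start of its name, fell further than any proteasome gene. It read 6.09, 5.96 and 5.39 in EGFP-positive replicates 1 to 3, against 7.25, 7.65 and 7.50 in the EGFP-negative replicates, a difference of -1.66 (SE 0.21, adjusted p = 0.0016), and its other probe set differed by -1.36 (SE 0.25). Counting it with the others would make 18 lower genes of 45.

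Genes that work around the proteasome were read from 8 lists, with 72 of their 85 genes measured and the others not analysed here. Of the 72 genes, 12 were higher and 9 lower in EGFP-positive cells, where 16% and 17.2% of all genes were. Named first are up to 2 genes in each direction from a list with the smallest p, and genes named beyond these to complete a count were chosen after their values were seen.

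Among the regulators of proteasome genes, 4 of 9 were higher and none was lower (median 0.30), where 16% and 17.2% of all genes were. Nfe2l2, the NRF2 activator of antioxidant response elements, read 10.52, 10.57 and 10.46 in EGFP-positive replicates 1 to 3, against 9.64, 9.65 and 9.63 in the EGFP-negative replicates, a rise of 0.88 (SE 0.08, adjusted p = 0.00038). Mafg, a small MAF partner of these factors, rose by 0.50 (SE 0.09, adjusted p = 0.0065). Beyond the rule, Mafk, another such partner, rose by 0.39 (SE 0.10, adjusted p = 0.027) and Bach1, a repressor at the same elements, by 0.43 (SE 0.08, adjusted p = 0.0065). Nfe2l1, the activator best known for raising proteasome genes, differed by -0.17 (SE 0.08, adjusted p = 0.16). These are transcript levels, and a link between the regulators and the proteasome differences was not tested.

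Of the immunoproteasome and PA28 genes, 1 of 4 was higher and 1 lower (median 0.15), where 16% and 17.2% of all genes were. Psme1, a subunit of the interferon-induced PA28 cap, rose to 11.07, 11.04 and 11.09 in EGFP-positive replicates 1 to 3, against 10.61, 10.62 and 10.56 in the EGFP-negative replicates, by 0.47 (SE 0.07, adjusted p = 0.0039). Psmb8, the interferon-induced counterpart of Psmb5, differed by -0.31 (SE 0.09, adjusted p = 0.043), a call lost without any array other than EGFP-positive replicate 3 (adjusted p up to 0.12) and with a block on replicate number (0.077). Psmb9 and Psmb10 differed by 0.12 and 0.19 without passing (adjusted p = 0.30 and 0.18). Genes of interferon-regulated antigen processing had 3 of 7 higher and none lower (median 0.40), against the same shares of all genes. Irf1, a transcription factor that induces immunoproteasome genes, rose by 1.28 (SE 0.14, adjusted p = 0.0010), Nlrc5, the activator of MHC class I genes, by 0.81 (SE 0.09, adjusted p = 0.00087) and Tapbp, the tapasin chaperone, by 0.40 (SE 0.07, adjusted p = 0.0076).

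Among receptors, deubiquitinases and shuttles that bind the proteasome, 2 of 13 were higher and 3 lower (median -0.17). These shares, 15.4% and 23.1%, were near the 16% and 17.2% of all genes. Uchl5, a deubiquitinase of the 19S base, read 9.30, 9.45 and 9.20 in EGFP-positive replicates 1 to 3, against 10.17, 10.16 and 10.13 in the EGFP-negative replicates, a difference of -0.84 (SE 0.09, adjusted p = 0.00094). The shuttles Ubqln1 and Ubqln2 went opposite ways, by -0.46 (SE 0.09, adjusted p = 0.0078) and 0.46 (SE 0.13, adjusted p = 0.039). Zfand5, a proteasome activator, rose by 0.48 (SE 0.08, adjusted p = 0.0055), and Txnl1, a thioredoxin-like protein bound to the particle, fell with a difference of -0.32 (SE 0.07, adjusted p = 0.019). Ubqln2 lost its call without any array other than EGFP-positive replicate 3 (adjusted p up to 0.12) and read 0.17 with the mean of its probe sets (adjusted p = 0.15), and Ubqln1 read -0.21 with that mean (adjusted p = 0.13).

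Upstream of the proteasome, 1 of 15 cullin and neddylation genes was higher and 3 were lower (median -0.05). The lower share was 20%, near the 17.2% of all genes, and the higher share was 6.67%, against 16%. Ube2f, a NEDD8 conjugating enzyme, rose by 0.46 (SE 0.09, adjusted p = 0.011). The ubiquitin ligase scaffolds Cul4a, Cul2 and Cul3 differed by -0.57 (SE 0.11, adjusted p = 0.0089), -0.48 (SE 0.09, adjusted p = 0.0081) and -0.45 (SE 0.10, adjusted p = 0.018). Of the COP9 signalosome, the lid-like complex that removes NEDD8 from cullins, 2 of 9 genes were lower and none higher (median -0.32). The lower share was 22.2%, near the 17.2% of all genes. Cops8 differed by -0.52 (SE 0.13, adjusted p = 0.022) and Cops5, its NEDD8-removing subunit, by -0.38 (SE 0.09, adjusted p = 0.024). The call of Cops8 was lost without EGFP-positive replicate 1 or 2 or EGFP-negative replicate 1 or 2 (adjusted p up to 0.079), and that of Cops5 without any array other than EGFP-negative replicate 3 (up to 0.074), and Cops5 read -0.17 with the mean of its probe sets (adjusted p = 0.31). A block on replicate number also ended the calls of Cops8 (adjusted p = 0.072) and Cops5 (0.069).

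VCP, the segregase that unfolds ubiquitinated proteins, and its cofactors had 1 of 14 genes higher and none lower (median -0.05). Of all genes 16% were higher and 17.2% lower. The higher one was Ubxn1, a cofactor of VCP, which rose by 0.58 (SE 0.08, adjusted p = 0.0028). Of the ubiquitin and E1 genes only Uba6, a second ubiquitin-activating enzyme, was measured, and it did not pass (-0.20, adjusted p = 0.13). The 9 lower genes of these lists became 4 without EGFP-negative replicate 1 and 4 without EGFP-negative replicate 2.

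**Figure D5:**
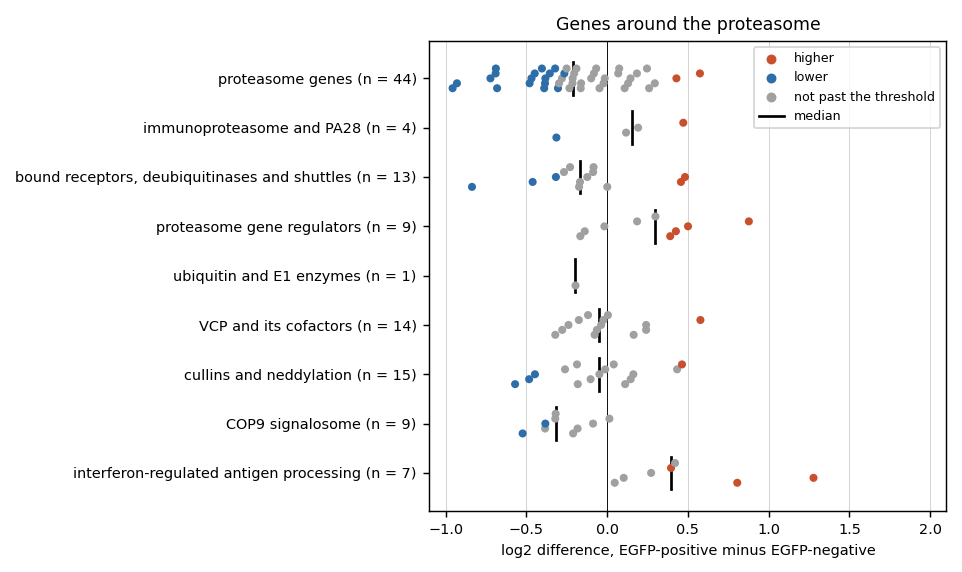
Log2 difference (EGFP-positive minus EGFP-negative, x axis) of each gene of the 44 proteasome genes and of 8 lists around them (y axis, with the number of genes measured); orange is higher, blue lower and grey not past an adjusted p of 0.05, and the black bar is the median. The medians of the regulators (0.30) and of antigen processing (0.40) lie above 0, and those of the proteasome genes (-0.21) and the COP9 signalosome (-0.32) below it.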

How the data were processed

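The authors deposited log2 values per probe set, which per the submitters' processing notes were made by RMA (version not given in the sources used here); per the labels' protocols, RNA was amplified from its 3' end and biotin-labelled. RMA equalises the arrays, so a change in total RNA per cell cannot be read. Of 45037 probe sets other than Affymetrix controls, 34945 had 1 gene in GEO's platform annotation, and each of 18192 genes took its probe set with the highest mean over the 6 arrays. No dim probe sets were removed. The highest value of 27 bacterial control probe sets, 3.61, served as background ceiling. Arrays carry no read depth, and 3 arrays a group limit the precision.

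Tests used limma 3.58.1 (lmFit and eBayes, R 4.3.3) on the deposited log2 values, EGFP-positive minus EGFP-negative, two-sided, with Benjamini-Hochberg adjustment over all genes, threshold 0.05. Further probe sets of a gene were read from a fit of all 45037. Groups came from the sample titles. Promoter windows came from RefSeq (GRCm38.p6). The script was tested on simulated data. The members, lists and alternatives were chosen with earlier results of these data known. All members are named, and from each list up to 2 genes in each direction with the smallest p. The alternatives were each array left out in turn, the mean or the most variable of a gene's probe sets, brighter genes only, a second quantile normalization, a shift of arrays to a common median, array weights, eBayes trend, eBayes robust and a replicate block. Counting Psmc3ip as a member was added later.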

Additional observations from a re-analysis of the deposited data

How the results depend on the processing

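The sign of the proteasome median was below 0 under every alternative run: -0.17 with arrays shifted to the same median, where that of the 20S core was -0.21, and between -0.24 and -0.19 with 1 array left out, where that of the 19S particle was between -0.28 and -0.17. The median of all genes was 0.02, 0.00 after a further quantile normalization and 0.07 with shifted arrays. Proteasome genes called lower, 17 in the report, numbered 10 with the replicate block, 11 with the most variable probe set and 7 to 14 with 1 array left out. Those called higher, 2 in the report, numbered 5 among brighter genes only, 5 with eBayes trend and 1 to 3 with 1 array left out. Listed genes called lower, 9 in the report, numbered 5 with the replicate block, 16 among brighter genes only, 16 with eBayes trend and 4 to 9 with 1 array left out. Psma1 turned to 0.44 (adjusted p = 0.062) when its probe sets were averaged and to 0.71 (adjusted p = 0.12) with the most variable one, and Psmd9 turned to -0.80 (adjusted p = 0.026) with the most variable one. Fewer samples, or for the brighter genes fewer genes tested, are part of these settings, and the cause of the other shifts was not tested. Of the 19 called proteasome genes 6 passed under all 15 alternatives and 13 lost their call under at least 1, while 8 of the 25 others passed under at least 1 (Psma2, Psma3, Psmb1, Psmd2, Psmd11, Psmf1, Psme4 and, with its sign turned, Psmd9). The block ended the calls of Psma1, Psmb4, Psmb6, Psmb7, Psmc3, Psmd1 and Psmd14. The deviations of same-numbered arrays correlated at 0.01, -0.01 and 0.00, and 3 of 6 arrays correlated best with their own number. No shared effect of the number was seen, but this cannot show whether same-numbered arrays came from the same culture.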
